A study of Homo sapiens with 7 samples.

Results

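The 21 rows described here are the HOX cluster genes and their antisense RNAs in a gene expression table of 13872 genes. They were chosen by symbol alone, as every row whose symbol begins with HOXA, HOXB, HOXC, HOXD, HOTAIR or HOTTIP, a rule that uses no measured value, although the gene family was picked with earlier results of these data known. Of these rows 18 are coding HOX genes, out of 39 in the human clusters, and 3 are long noncoding RNAs (HOTAIRM1, HOXB-AS1 and HOXD-AS2). The other 21 coding genes and HOTAIR and HOTTIP had no row under these symbols, so their levels are not covered here. Total RNA was sequenced for 7 cultures. All were UM-UC-3, a bladder cancer cell line, grown in DMEM with serum. Clones H1, H6 and H10 were isolated as ALDH-high and clones L1, L3 and L8 as ALDH-low in the ALDEFLUOR assay, in which cells fluoresce with aldehyde dehydrogenase (ALDH) activity. A single wild-type culture served as control. All clones derive from this 1 line, n = 3 refers to clones throughout, and the wild type is unreplicated.

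HOX genes encode homeodomain transcription factors that give cells a position along the body axis. They lie in 4 clusters, HOXA on chromosome 7, HOXB on chromosome 17, HOXC on chromosome 12 and HOXD on chromosome 2. Genes at the same place in different clusters are paralogs and share a number, from anterior genes, such as HOXB2 of the hindbrain, to posterior genes such as HOXA13 and HOXD13, which pattern the limb ends and the urogenital tract. Retinoic acid, which ALDH1A enzymes make, switches on anterior genes in the embryo, Polycomb complexes keep clusters silent, and MLL complexes keep them active.

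Levels are CPM, counts scaled to library size, as deposited. One read was worth 0.0393 to 0.0411 CPM, and the lowest value among these rows, 0.68 CPM of HOXC5 in L8, is about 17 reads. Differences, on log2(CPM + 1), are positive where ALDH-high clones were higher and were fitted with limma over 12705 genes. A gene was said to differ at a Benjamini-Hochberg adjusted p under 0.05. All 21 rows passed the filter on low values (1 CPM or more in 3 or more clones).

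Start regions are shown for members whose groups stood apart, to set their letters beside the values that follow. HOXC6, HOXB6 and HOXB7 also stood apart but had no matching promoter window. That of HOXD4 lies wholly in annotated exons and is not printed. HOXC4, whose groups overlapped, is named only because it shares the window of HOXC5. RefSeq promoter windows (build GRCh38.p14) matched 10 of the 21 rows by symbol. The search covered 5 motifs on both strands in the 250 bases before each start: the retinoic acid receptor motifs AGGTCA and AGTTCA, the PBX-HOX motif TGATNNAT, the homeodomain site TAATTA and the TATA box TATAAA. Capitals mark matches, and TGAACT is AGTTCA read on the other strand. HOXC4 and HOXC5 have the same window in RefSeq, and only 30 bases of it are printed because it lies within an exon of HOXC6. The window of HOXD8 is printed up to its first annotated exon base, and those of the noncoding RNAs whole.
HOXC4 and HOXC5, chr12:54016838-54016867, plus strand: catccatgaacgTGAACTttttattgtggt
HOXD8, chr2:176129455-176129693, plus strand: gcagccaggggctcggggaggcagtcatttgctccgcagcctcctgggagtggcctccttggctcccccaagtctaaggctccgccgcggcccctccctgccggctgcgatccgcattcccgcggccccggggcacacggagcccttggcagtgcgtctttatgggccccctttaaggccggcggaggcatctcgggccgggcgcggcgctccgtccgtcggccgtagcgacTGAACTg
HOXD-AS2, chr2:176137099-176137348, minus strand: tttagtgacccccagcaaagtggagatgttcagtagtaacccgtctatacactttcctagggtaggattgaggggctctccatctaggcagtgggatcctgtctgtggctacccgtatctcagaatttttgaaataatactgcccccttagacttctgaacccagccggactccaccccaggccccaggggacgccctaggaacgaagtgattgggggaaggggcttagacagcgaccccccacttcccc
HOXB-AS1, chr17:48544101-48544350, plus strand: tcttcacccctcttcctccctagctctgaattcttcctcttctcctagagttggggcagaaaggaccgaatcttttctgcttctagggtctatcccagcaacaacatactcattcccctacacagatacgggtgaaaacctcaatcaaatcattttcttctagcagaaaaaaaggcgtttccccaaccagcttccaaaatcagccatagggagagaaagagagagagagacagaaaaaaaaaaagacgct
The shared window of HOXC4 and HOXC5 and that of HOXD8 each held 1 AGTTCA, 38 and 18 bases before the RefSeq start. This motif was found in 8.8% of 35116 promoter windows of this length. AGGTCA was in 12.1%, TGATNNAT in 6.47%, TAATTA in 4.35% and TATAAA in 10.7% of windows, and none of the 5 was in the windows of HOXD-AS2, HOXB-AS1 and HOXD4. Motifs were also found in matched rows whose groups overlapped. One window of HOXA3 held AGTTCA and TATAAA, that of HOXD3 held TAATTA, and that of HOXD11 held TAATTA and TGATNNAT, whereas HOXA4 held none. HOXD8 had 28 CG pairs in 250 bases and HOXC4 and HOXC5 14, against 6 for HOXD-AS2, 4 for HOXB-AS1 and a median of 11 over all windows.

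No HOX row passed the test between ALDH-high and ALDH-low clones. With limma 0 of 21 rows were under the adjusted threshold, where 1.34% of all tested genes were (0.645% higher and 0.693% lower). An unadjusted p under 0.05 was found for 8 rows (38.1%, against 19.7% of all tested genes). Of these, 3 were higher in ALDH-high clones (14.3%, against 10.4%) and 5 lower (23.8%, against 9.31%). Adjusted p ran from 0.0856 for HOXC5 to 0.943 for HOXB3. The 3 ALDH-high clones lay wholly apart from the 3 ALDH-low clones in 8 rows (38.1%, against 26.1% of all tested genes). They were above in 3 rows (14.3%, against 14% of all genes) and below in 5 (23.8%, against 12.1%). By point estimate 6 rows were higher and 15 lower in ALDH-high clones, with a median of -0.13 log2 units where the median of all tested genes was 0.00. The 95% intervals of 13 rows included 0. Those of 11 rows reached 1 unit of log2(CPM + 1) in one direction or the other, so a difference of that size was compatible with their data. At low levels 1 such unit is more than 2-fold in CPM (HOXC5, at 1.05 units, had a ratio of 2.98). Further rows may therefore also allow a 2-fold difference in CPM. The plot of values by library shows where the groups separate and where they mix.

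**Figure D1:**
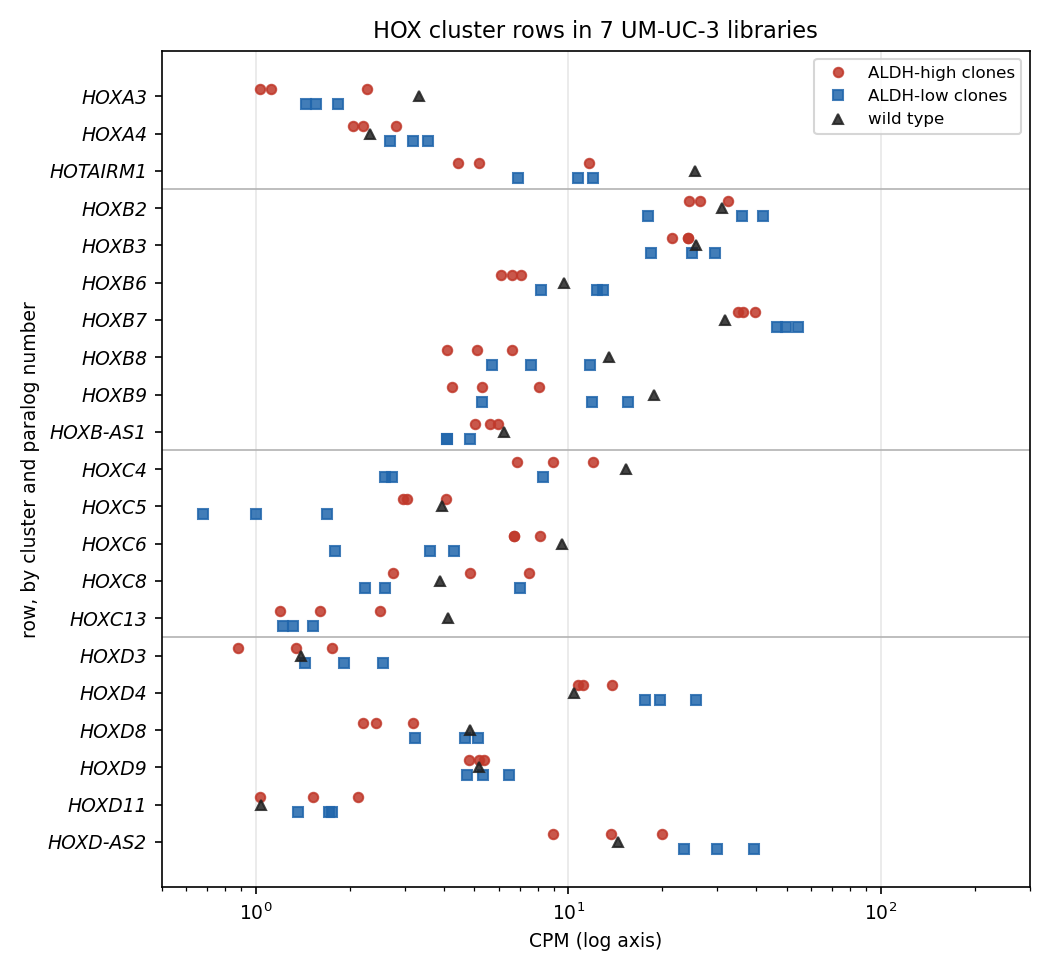
CPM of each HOX row (log axis) in 3 ALDH-high clones, 3 ALDH-low clones and the wild type, 1 point per library, with rows ordered by cluster and paralog number. HOXC5 and HOXC6 have all ALDH-high points to the right of all ALDH-low points, HOXB7, HOXD4 and HOXD-AS2 the reverse, and the wild type lies to the right of every clone in 8 rows.

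HOXC was the only one of the 4 clusters with all its point estimates (5 rows) higher in ALDH-high clones. HOXC4, HOXC5 and HOXC6 are central genes of the cervical and thoracic trunk, next to each other on the plus strand. HOXC5 was at 4.05, 3.04 and 2.96 CPM in H1, H6 and H10 and at 1, 1.69 and 0.68 CPM in L1, L3 and L8. Each ALDH-high clone exceeded each ALDH-low clone, and the wild type, at 3.96 CPM, lay among the ALDH-high values. The means were 3.35 ± 0.608 and 1.12 ± 0.516 CPM (SD, n = 3), a ratio of 2.98, and the log2 difference was 1.05 (SE 0.25, limma adjusted p = 0.0856). HOXC6 was at 8.11, 6.69 and 6.72 CPM in H1, H6 and H10 and at 3.6, 4.32 and 1.8 CPM in L1, L3 and L8. Here too the groups did not overlap, and the wild type was highest at 9.55 CPM. The means of HOXC6 were 7.17 ± 0.811 and 3.24 ± 1.30 CPM (0.99 log2 units, SE 0.275, limma adjusted p = 0.113).

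HOXC4 was at 12, 8.95 and 6.84 CPM in H1, H6 and H10 and at 2.6, 8.33 and 2.72 CPM in L1, L3 and L8. L3 stood among the ALDH-high clones, far above the other ALDH-low clones, so the groups overlapped. The log2 difference was 1.01 (SE 0.393, limma adjusted p = 0.21). It was 1.46 without L3, 0.77 without L1 and 0.79 without L8. The same clone was high for HOXC8, a gene of the thoracic level, with 7.03 CPM against 2.24 and 2.6 CPM in L1 and L8. HOXC8 had 2.74, 7.47 and 4.84 CPM in H1, H6 and H10, which span the ALDH-low values (0.33 log2 units, limma adjusted p = 0.707). HOXC13, the most posterior HOXC gene and a regulator of hair and nail keratins, was at 1.2 to 2.5 CPM in the 6 clones and 4.12 CPM in the wild type. In GENCODE 29 exons of HOXC4 and HOXC6 overlap on the same strand, and the 484 bases they share are 17.8% of the exon length of HOXC4 and 13.7% of that of HOXC6. The sources used here do not state how reads in such stretches were assigned, so these rows may not be independent.

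The 6 HOXD rows had point estimates below 0, most clearly for HOXD-AS2 and HOXD4. HOXD-AS2, a noncoding RNA on the strand opposite to HOXD8 and HOXD3, was at 20.03, 13.75 and 8.96 CPM in H1, H6 and H10 and at 29.88, 39.36 and 23.48 CPM in L1, L3 and L8. The highest ALDH-high clone stayed below the lowest ALDH-low clone, and the wild type, at 14.43 CPM, lay within the ALDH-high range. The means were 14.2 ± 5.55 and 30.9 ± 7.99 CPM, a ratio of 2.17 in favour of ALDH-low, with a log2 difference of -1.10 (SE 0.303, limma adjusted p = 0.112).

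HOXD4, a retinoic acid responsive gene of the hindbrain, was at 13.83, 11.16 and 10.72 CPM in H1, H6 and H10 and at 19.64, 25.57 and 17.64 CPM in L1, L3 and L8. The groups did not overlap, L3 was highest, and the wild type, at 10.43 CPM, was below every clone. The log2 difference was -0.76 (SE 0.203, limma adjusted p = 0.107). HOXD8, of the trunk level, was at 3.18, 2.42 and 2.2 CPM against 3.24, 4.67 and 5.16 CPM in the clones in the same order with H1 and L1 nearly level (-0.56 log2 units, limma adjusted p = 0.234). HOXD9 was at 5.36, 4.8 and 5.2 CPM in H1, H6 and H10, at 6.48, 4.75 and 5.32 CPM in L1, L3 and L8 and at 5.2 CPM in the wild type. HOXD9, HOXD11 (1.03 to 2.12 CPM over the 6 clones) and HOXD3 (0.88 to 2.55 CPM) overlapped between groups, with differences of -0.08, -0.05 and -0.35 log2 units. HOXD9 varied least of all 21 rows, with 1.36-fold between its highest and lowest clone. HOXD-AS2 and HOXD3 overlap on opposite strands over 379 exon bases, 26.5% of the exon length of HOXD-AS2. The table marks a strand for each gene, but whether reads were counted by strand is not stated.

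**Figure D2:**
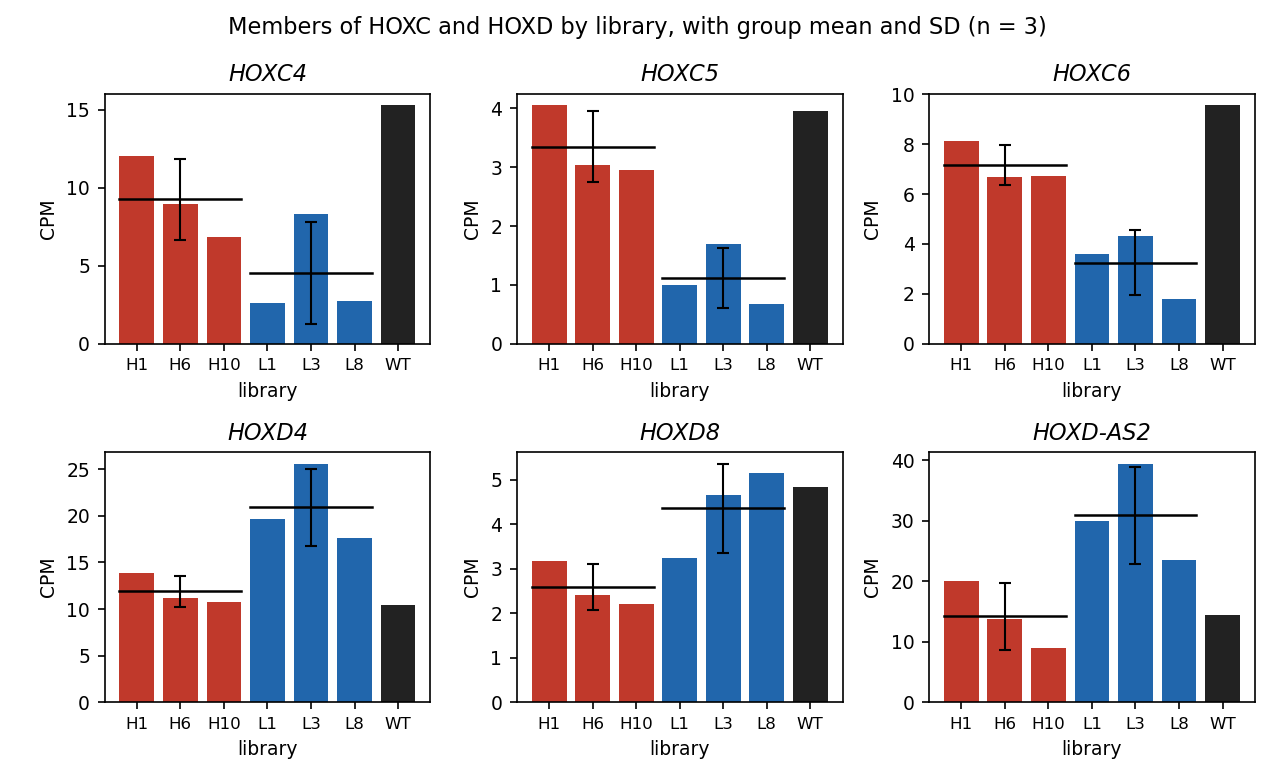
CPM of 3 HOXC and 3 HOXD rows in each library (H, ALDH-high clone, L, ALDH-low clone, WT, wild type), with black lines for the group mean and bars for the SD over 3 clones. HOXC5 and HOXC6 are higher in every ALDH-high clone, HOXC4 overlaps through L3 at 8.33 CPM, and HOXD4, HOXD8 and HOXD-AS2 are higher in every ALDH-low clone.

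The median difference of the genes around HOXA, HOXC and HOXD had the sign of the cluster's own median, and that around HOXB was 0. Of the 50 tested genes nearest to HOXD, 25 on each side and no HOX gene among them, 47 were lower in ALDH-high clones by point estimate, with a median of -0.73 log2 units. Over all tested genes 49.6% were lower. The medians on the 2 sides of HOXD were -0.87 and -0.60, and the median of the 6 HOXD rows was -0.46. Around HOXC 42 of 50 neighbours were higher, with a median of 0.31 against 0.99 for the 5 HOXC rows. Around HOXA 40 of 50 were lower, with a median of -0.23 against -0.30 for the 3 HOXA rows. Around HOXB 24 of 50 were lower, against a median of -0.43 for the 7 HOXB rows.

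Among listed genes flanking HOXD, HNRNPA3, an RNA-binding protein gene, was at 402 ± 54.2 CPM in ALDH-high and 666 ± 88.2 CPM in ALDH-low clones (-0.73 log2 units, limma adjusted p = 0.0819). ATP5G3, which encodes a subunit of ATP synthase and is named after its values were seen, was at 234 ± 88 CPM in ALDH-high and 556 ± 180 CPM in ALDH-low clones (-1.26 log2 units, limma adjusted p = 0.0891). KIAA1715, which encodes an endoplasmic reticulum junction protein, was at 26.7 ± 5.23 against 54.9 ± 9.38 CPM (-1.02 log2 units, limma adjusted p = 0.06). Of the 6 HOXD flanking genes on the list 0 passed with limma and 5 were under 0.05 unadjusted, where 19.7% of all tested genes were. Among the 50 HOXD neighbours 2 passed (1.34% of all tested genes did) and 30 were under 0.05 unadjusted. On the other flanking lists 0 genes passed, and 2 of 5 around HOXA, 1 of 7 around HOXB and 0 of 7 around HOXC were under 0.05 unadjusted. By library the 50 HOXD neighbours had their highest median in L3, at 0.67 log2 units above the clone mean, and their lowest in H10 and the wild type, both at -0.39. The HOXD rows were also highest in L3 (0.42) and lowest in H10 (-0.45), with the wild type at -0.22. For HOXC the row medians were highest in the wild type (0.87) and H1 (0.66) and lowest in L8 (-0.84), where the neighbours stood at 0.19, 0.31 and -0.18.

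In an alternative chosen after seeing the data, each library's median deviation over neighbouring genes, up to 25 on each side, was taken off. This was done for HOX rows and for other tested genes alike, with HOX rows never used as neighbours. All 12705 genes were then refitted, and 127 were called, against 170 before. HOXD4 then differed by -0.07 and HOXD-AS2 by -0.41 log2 units. HOXC4, HOXC5 and HOXC6 differed by 0.72, 0.76 and 0.70 log2 units, and HOXB6 and HOXB7 by -0.64 and -0.42. HOXD9 and HOXD11, which differed by under 0.1 log2 units before, differed by 0.60 and 0.63. HOXD3 and HOXD8 changed sign to 0.33 and 0.12. The smallest limma adjusted p among the HOX rows was then 0.142, that of HOXC5. The part of DNA copy number or of regional chromatin in these shared shifts was not tested.

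**Figure D3:**
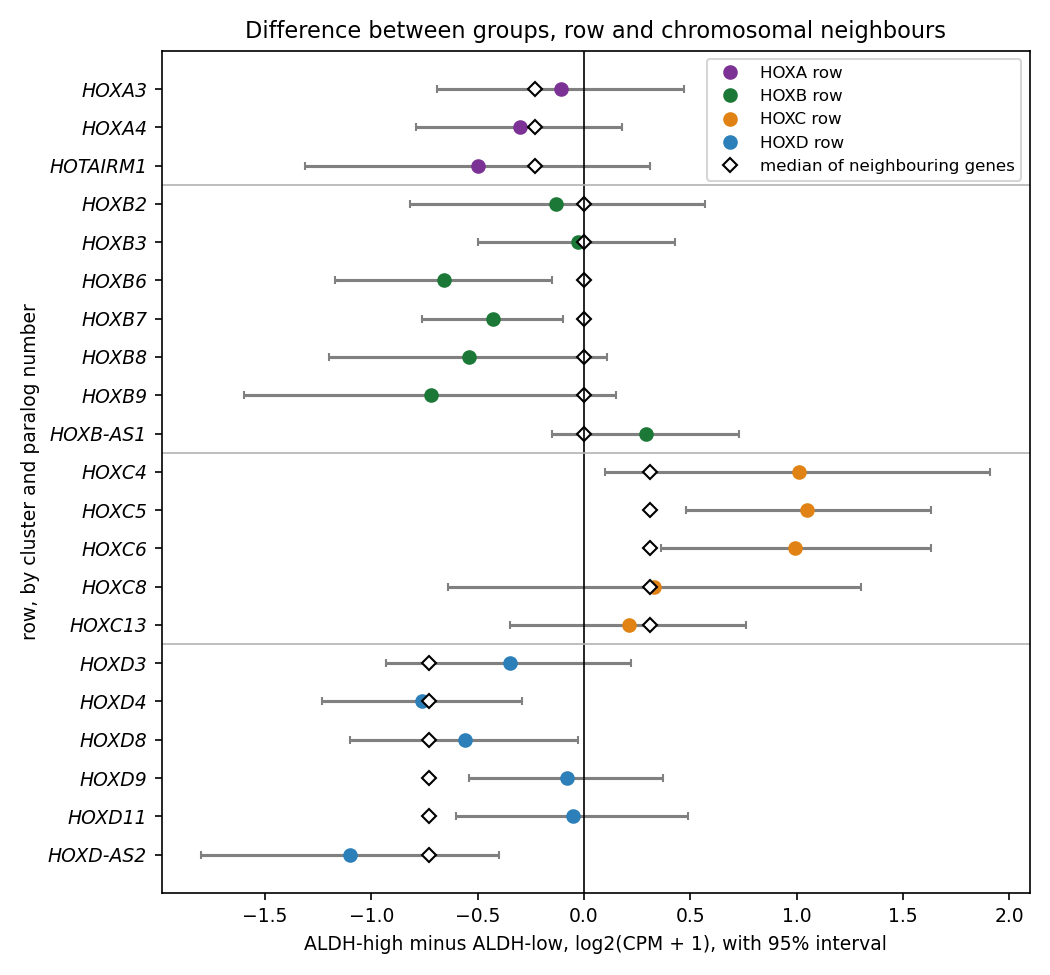
ALDH-high minus ALDH-low difference on log2(CPM + 1) for each HOX row, with 95% interval (limma, 3 against 3 clones), and open diamonds for the median difference of the 50 neighbouring genes. Diamonds lie at -0.73 for HOXD, 0.31 for HOXC, -0.23 for HOXA and 0 for HOXB, and HOXC4, HOXC5 and HOXC6 lie farther from 0 than their neighbours.

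**Figure D4:**
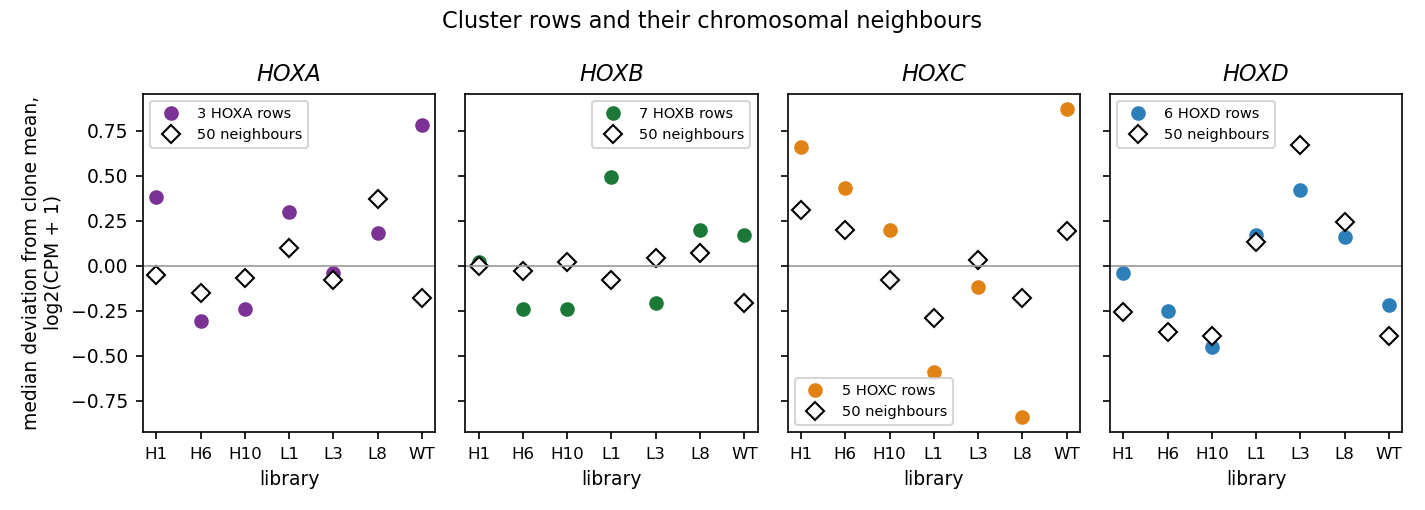
Median deviation from the mean of the 6 clones on log2(CPM + 1), by library, for the rows of each cluster (filled) and their 50 neighbouring genes (open). In the HOXD panel both are highest in L3 (0.42 and 0.67), in the HOXC panel the rows spread from -0.84 to 0.87 and the neighbours from -0.29 to 0.31.

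HOXB held the 3 rows with the highest CPM of all, HOXB7, HOXB2 and HOXB3. HOXB7, a central gene often expressed in carcinomas, was at 36.28, 39.65 and 35 CPM in H1, H6 and H10 and at 54.56, 49.93 and 46.48 CPM in L1, L3 and L8. The groups did not overlap and the wild type, at 31.85 CPM, was below every clone. HOXB7 had the narrowest interval of all rows, from -0.76 to -0.10 log2 units around -0.43 (SE 0.143, limma adjusted p = 0.158). HOXB6 was at 6.08, 6.61 and 7.08 CPM in H1, H6 and H10 and at 12.36, 8.21 and 12.92 CPM in L1, L3 and L8, again without overlap (-0.66 log2 units, SE 0.22, limma adjusted p = 0.163). HOXB2, a hindbrain gene at the anterior end, was at 26.43, 24.3 and 32.44 CPM in H1, H6 and H10, at 41.88, 18.07 and 35.88 CPM in L1, L3 and L8 and at 31.17 CPM in the wild type. HOXB3, its neighbour, was at 24.16, 21.55 and 24.16 CPM, at 29.52, 18.35 and 24.92 CPM and at 25.58 CPM in the same order. L3 was lowest and L1 highest for both, so the groups mixed, with differences of -0.13 and -0.03 log2 units (intervals -0.82 to 0.57 and -0.50 to 0.43).

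HOXB8 and HOXB9 lie at the posterior end of the listed HOXB genes, and both overlapped between groups. HOXB9 was at 8.07, 5.29 and 4.24 CPM in H1, H6 and H10, at 15.56, 5.3 and 11.88 CPM in L1, L3 and L8 and at 18.82 CPM in the wild type. L3 was at the level of H6, so the groups overlapped (-0.72 log2 units, SE 0.379, limma adjusted p = 0.339). Without L3 the difference of HOXB9 was -1.13, and without L1 it was -0.43. HOXB8 ran from 4.1 to 11.72 CPM over the clones, with the lowest value in H6, the highest in L1 and the wild type above both at 13.51 CPM. HOXB-AS1, transcribed against HOXB2 and HOXB3, was the 1 HOXB row with a higher point estimate in ALDH-high clones. It was at 5.6, 5.95 and 5.04 CPM in H1, H6 and H10 and at 4.08, 4.09 and 4.84 CPM in L1, L3 and L8, without overlap (0.29 log2 units, SE 0.192, limma adjusted p = 0.443). Its exons overlap those of HOXB3 by 374 bases and those of HOXB2 by 87 bases on the opposite strand. Annotated exons of HOXB3 and HOXB6 share 433 bases on the same strand. These bases are 5.8% of the exon length of HOXB3 and 16.6% of that of HOXB6. How reads in this stretch were assigned is not stated, so the rows of HOXB3 and HOXB6 may not be independent.

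HOXA was represented by 3 rows at its anterior end. HOTAIRM1, a noncoding RNA that retinoic acid induces in myeloid and neural cells, was at 11.64, 4.43 and 5.2 CPM in H1, H6 and H10 and at 12, 6.91 and 10.72 CPM in L1, L3 and L8. H1 was close to the highest ALDH-low clone, so the groups overlapped (-0.50 log2 units, SE 0.353, limma adjusted p = 0.474). The difference was -0.88 without H1 and -0.27 without H6. The wild type had 25.38 CPM of HOTAIRM1, 2.88 times the median clone. HOXA3, which patterns the pharyngeal arches, was at 2.27, 1.03 and 1.12 CPM in H1, H6 and H10 and 1.56, 1.45 and 1.84 CPM in L1, L3 and L8, and H1 alone was above the ALDH-low values. HOXA4 was at 2.82, 2.05 and 2.2 CPM against 3.56, 3.18 and 2.68 CPM in the same order, overlapping through H1 (-0.30 log2 units, limma adjusted p = 0.467). All 3 HOXA rows were lowest in H6.

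Summed over its rows, HOXB held between 49.4 and 65.2% of the HOX CPM in each library, HOXD 15.4 to 35.2%, HOXC 4.07 to 15.6% and HOXA 4.23 to 12.8%. These shares cover listed rows only, and no test was run on sums. The HOXD sum was 45.2, 35 and 30.1 CPM in H1, H6 and H10 and 62.4, 78.3 and 55.3 CPM in L1, L3 and L8, without overlap, and 37.3 CPM in the wild type. The HOXC sum was 29.4, 27.8 and 22.6 CPM against 10.96, 22.6 and 9.12 CPM in the same order, where H10 and L3 were nearly level, and the wild type had 36.8 CPM. The HOXB sum was 111 ± 3.29 CPM in ALDH-high and 141 ± 30.1 CPM in ALDH-low clones, and the HOXA sum 10.9 ± 5.06 and 14.6 ± 2.84 CPM, both overlapping. Per kilobase of exon the HOXB sum did not overlap, at 50.1 ± 0.462 against 65.2 ± 11.6 CPM per kb. The sum of all 21 rows did not overlap either, at 204.5, 177.7 and 174.2 CPM in H1, H6 and H10, 260.2, 222 and 224.2 CPM in L1, L3 and L8 and 242 CPM in the wild type. In CPM the ALDH-high clones were close to each other in the HOXB sum, whereas L3, at 109.7 CPM, lay near them and L1 and L8 lay higher at 169.7 and 144.5 CPM.

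Along the clusters, levels were compared per kilobase of annotated exon, on the assumption that reads cover whole transcripts and grow with length. On this scale HOXB7 was highest with 27.5 CPM per kb as the mean of 7 libraries, followed by HOXD-AS2 (15.0), HOXB2 (12.9), HOXD4 (10.6) and HOTAIRM1 (7.28). The next neighbours HOXB9, HOXB8 and HOXB6, at 3.83, 3.79 and 3.45 CPM per kb, overlapped in their range over libraries. The lowest were HOXA3 and HOXD3 at 0.418 and 0.455 CPM per kb. HOXB3 was 3rd by CPM and 10th per kb, as its annotated exons span 7.456 kb. Whether the libraries hold 5′ ends only, for which length would not matter, is not stated, but column names end in forCAGEr. If they do, the CPM order applies and the order per kb does not.

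The 10 central rows (paralogs 4 to 8) made up 64.1 to 80.1% of the coding HOX CPM per kb in each library, the 4 anterior rows (2 and 3) 13.1 to 25.3% and the 4 posterior rows (9 to 13) 6.71 to 14.6%. L3 had the highest central and the lowest anterior and posterior share, and the wild type the highest posterior share. The central sum did not overlap between groups, at 49.7 ± 3.12 in ALDH-high against 64.4 ± 5.69 CPM per kb in ALDH-low clones. Most of this gap lay in HOXB7 (24.2 against 32.9 CPM per kb) and HOXD4 (8.13 against 14.3 CPM per kb). By point estimate 6 central rows were lower in ALDH-high clones and 4, all in HOXC, were higher. The anterior sums, 15.7 ± 1.87 and 17.9 ± 5.91, and the posterior sums, 6.48 ± 0.897 and 8.5 ± 2.61, overlapped. The shares above rest on division by exon length, which would not apply to libraries of 5′ ends only. In CPM without this division the central sums were 90.5 ± 6.17 and 111 ± 9.63, also without overlap. The anterior sums were 53.8 ± 5.23 and 59.8 ± 17.5 CPM and the posterior sums 14.3 ± 2.31 and 19.4 ± 6.37 CPM, both overlapping. The 6 coding rows whose groups stood apart were among the 10 central rows (26.1% of all tested genes stood apart). HOXC5 and HOXC6 were above in ALDH-high clones, and HOXB6, HOXB7, HOXD4 and HOXD8 below. HOXD4 is counted as central here, and a cut after number 4 would make it anterior. By point estimate, the paralogs of number 3 (HOXA3, HOXB3 and HOXD3) and of number 9 (HOXB9 and HOXD9) were all lower in ALDH-high clones. The other 3 numbers with more than 1 listed gene were mixed: among the number 4 genes HOXC4 differed by 1.01 and HOXD4 by -0.76 log2 units, among number 6 HOXC6 by 0.99 and HOXB6 by -0.66, and among number 8 HOXC8 by 0.33 and HOXD8 by -0.56. Levels within a number also spread, by 7.72-fold per kb among HOXA3, HOXB3 and HOXD3 and 6.91-fold among HOXA4, HOXC4 and HOXD4, but 1.35-fold between HOXB9 and HOXD9.

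**Figure D5:**
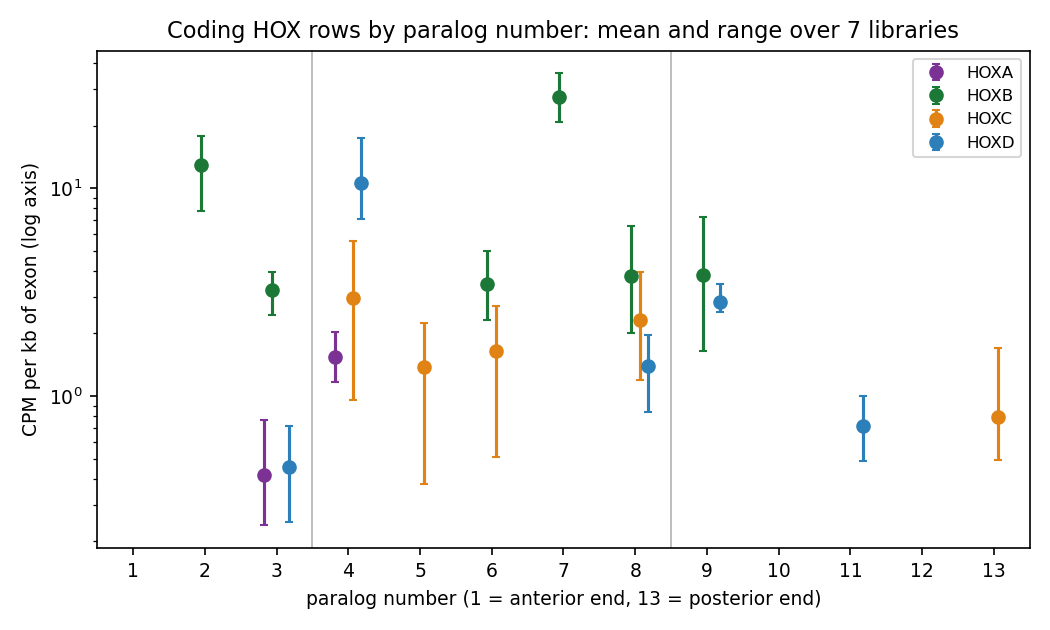
CPM per kb of annotated exon (log axis) of the 18 coding HOX rows by paralog number, as the mean and the range over 7 libraries, coloured by cluster. HOXB7 (27.5), HOXB2 (12.9) and HOXD4 (10.6) stand highest, and the anterior HOXA3 and HOXD3 and the posterior HOXD11 and HOXC13 lowest, all under 1.

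The wild-type library, described without a test, was above all 6 clones in 8 rows (38.1%, against 22.6% of all tested genes) and below them in 2 (9.52%, against 25.4%). The 8 rows were HOXA3, HOTAIRM1, HOXB8, HOXB9, HOXB-AS1, HOXC4, HOXC6 and HOXC13, and none was in HOXD. HOXC13 and HOXB9 had 2.9 and 2.82 times the median clone, HOXB8 2.2 times and HOXA3 2.21 times. HOTAIRM1, HOXB8 and HOXB9 shared an order of libraries in part, with the wild type first, L1 next and H6 and H10 among the 3 lowest. The median ratio of highest to lowest clone was 2.35 for the HOX rows and 1.84 for all tested genes, with the widest spread in HOXC5 (5.96-fold), HOXC4 (4.62-fold), HOXC6 (4.51-fold) and HOXD-AS2 (4.39-fold).

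Cofactors and regulators of HOX genes gave no calls, where 1.34% of all tested genes were called and 19.7% were under 0.05 unadjusted. Of 9 TALE cofactor genes, whose homeodomain proteins bind DNA beside HOX proteins, 5 were listed and 4 tested, none of which limma passed (median -0.23 log2 units). PBX3 alone was under 0.05 unadjusted, at 7.68 ± 2.07 against 12.6 ± 1.43 CPM (-0.67 log2 units, limma adjusted p = 0.175). MEIS2 was at 3.31 ± 0.431 against 5.96 ± 2.72 CPM, overlapping through L3 at 2.87 CPM. Of 11 PRC2 genes, which deposit the repressive H3K27 methyl mark, 0 passed and 3 were under 0.05 unadjusted (median 0.15). PHF1 was at 11.8 ± 1.49 against 7.61 ± 1.27 CPM (0.58 log2 units, limma adjusted p = 0.177) and JARID2 at 8.68 ± 1.19 against 16.1 ± 6.49 CPM (-0.74 log2 units, limma adjusted p = 0.238). Of 18 PRC1 genes tested 0 passed and 0 were under 0.05 unadjusted (median 0.10), with BMI1 and PCGF2 at -0.26 and 0.34 log2 units. Of 20 Trithorax and MLL complex genes 0 passed and 1 was under 0.05 unadjusted (median -0.03). That was KDM6B, an H3K27 demethylase, at 3.16 ± 1.90 against 1.14 ± 0.329 CPM (0.88 log2 units, limma adjusted p = 0.194), and AFF1 was at -0.33 log2 units. Of 10 genes of cluster architecture, CTCF and cohesin among them, 0 passed and 1 was under 0.05 unadjusted, WAPAL, a cohesin release factor, at -0.36 log2 units, with SMC3 at 0.18. CDX and EVX homeobox genes were not among the listed rows.

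As a check of the label, 2 of 16 urothelial markers were listed, FOXA1 and PPARG, at a summed 0.64 to 8.41 CPM over the 7 libraries, and uroplakins were not among the rows. Of 6 epithelial markers 3 were listed (KRT7, KRT8 and KRT18), summing to 498.6 to 738.6 CPM in ALDH-high and 234.9 to 519.1 CPM in ALDH-low clones. KRT8 and KRT18 made up this sum (0.72 and 0.85 log2 units), and KRT7 had the opposite sign, at 1.99 ± 0.731 against 5.3 ± 1.83 CPM (-1.05 log2 units, limma adjusted p = 0.118). Of 6 mesenchymal markers 5 were listed, led by VIM, summing to 1131 to 1264 CPM in ALDH-high and 1198 to 1589 CPM in ALDH-low clones. ZEB2 was lower by 2.36 log2 units in ALDH-high than in ALDH-low clones (limma adjusted p = 0.00706). It was at 0.76, 0.41 and 0.16 CPM in H1, H6 and H10 and at 5.12, 5.93 and 8.16 CPM in L1, L3 and L8. The wild type, at 1.6 CPM, lay between the groups. CDH2, N-cadherin, was at 12.4 ± 3.73 against 28.5 ± 12.8 CPM (-1.10 log2 units, limma adjusted p = 0.128). No fibroblast, leukocyte or endothelial marker on the lists was among the listed rows. The part of these marker shifts in the HOX differences was not tested.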

How the data were processed

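RNA of 6 clones and 1 wild-type culture of UM-UC-3 was measured, per the labels. The authors deposited 1 table of CPM rounded to 2 decimals. The submitters' processing notes list BWA 0.5.9, hg19 and mm9 with no role, and column names end in forCAGEr, per the file headers. The sources used here do not state how reads were counted. Values were multiples of 1 read (0.0393 to 0.0411 CPM) within the rounding. In 3 libraries only 77.7 to 82% of values under 5 CPM lay within 0.1 read of a whole number, so no count test was run. Every listed gene reached 0.52 CPM in some library.

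Differences were fitted with limma 3.58.1 in R 4.3.3 on log2(CPM + 1) over 6 clones, with a variance trend, two-sided, for 12705 genes. With 3 against 3 an exact permutation test of 1 gene cannot go below p = 0.1. The fit was tested on simulated data. Exon lengths, overlaps and gene order came from GENCODE 29 (GRCh38), matched by identifier. Its coordinates were used within that build only. P-values measure the spread between these clones of 1 line. The members and lists were chosen with earlier results of these data known. Full values are given for rows whose groups do not overlap, the 3 highest per cluster, the most variable per cluster and HOTAIRM1. For the lists of cofactors, regulators and HOXD flanking genes the 2 smallest p are named. Alternatives covered pseudocount, filter, scaling, weights, variance model, identical rows, inclusion of the wild type and leaving out each clone.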

Additional observations from a re-analysis of the deposited data

How the results depend on the processing

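Of 349 refits of single HOX rows, 333 kept direction and side of the threshold. With library weights 1 row passed higher (HOXC5, adjusted p = 0.0365) and 2 lower (HOXD-AS2, 0.0346, and HOXD4, 0.0406), and HOXD11 reversed to 0.07 log2 units; the cause was not tested. That setting called 700 genes in all, against 170, and a filter at 5 CPM called 86 and tested 13 HOX rows. In the other settings 0 HOX rows passed in either direction, each clone left out included (0 to 0), while those 6 fits called 34 to 173 genes in all (57 without H6, 34 without H10, 44 without L1 and 37 without L8). Leaving out 1 clone reversed HOXA3 (-0.33 to 0.01), HOXB2 (-0.48 to 0.11), HOXB3 (-0.21 to 0.12), HOXD9 (-0.17 to 0.02) and HOXD11 (-0.21 to 0.10). Subtracting neighbours, added after seeing the data, reversed HOXA3 (0.11), HOXC13 (-0.08), HOXD3 (0.33), HOXD8 (0.12), HOXD9 (0.60) and HOXD11 (0.63). Sums of clusters and positions moved by less than the spread between clones in every setting tried. The log2 ratio of the anterior sum still changed sign without L1, from -0.19 to 0.02. That of the HOXC sum went from 0.90 to 1.40 without L3, where the spread was 0.51. edgeR and DESeq2, planned if whole reads could be recovered, were not run. No paired analysis was possible because the labels pair no ALDH-high clone with an ALDH-low clone. With about 17 reads behind the lowest HOX value, counting error is largest for HOXC5, HOXD3, HOXA3 and HOXD11.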
